A study of Mus musculus with 6 samples.

Results

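The genes described here are 10 genes of the ribosome and its assembly line, out of 56953 features counted in tailbud tissue of mouse embryos: 2 genes for ribosomal proteins, Rps20 and Rpl30, and 8 genes for factors that make or process ribosomal RNA or assemble the subunits, Polr1e, Nol6, Exosc3, Rbm28, Tex10, Mdn1, Zfp622 and Dnajc21. They were chosen by function among the genes on the stretches of chromosomes 4, 6 and 15 where the name of a row could be matched to the reads counted in it. All 10 passed the filter on low counts, with 1950 to 112648 raw counts per gene and library.

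Polyadenylated RNA was sequenced from 3 wild-type libraries and 3 libraries of the genotype Fgfr1 FCPG/FCPG, all at embryonic day 9.5. FCPG is an allele of the FGF receptor gene Fgfr1 in which residues that bind signaling effectors carry point mutations, and the mutant libraries came from homozygotes. The comparison addresses how transcription in forming mesoderm differs when canonical signaling from this receptor is disabled. The labels give neither the number of embryos pooled in a library nor litters, so p-values measure the spread between these libraries.

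Ribosomes are built in the nucleolus, where RNA polymerase I transcribes a long precursor RNA that is cut, trimmed and folded together with ribosomal proteins. Many assembly factors bind in turn, remodel the particles and leave, and the last of them are removed in the cytoplasm. Ribosomal protein messenger RNAs are among the most abundant of any growing cell, whereas those of assembly factors are of middling abundance. Growth factor signaling is a textbook input to both, and progenitors of the early embryo, which divide fast, make many ribosomes.

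Both ribosomal protein messenger RNAs rose in the mutant, by 43.5% for Rps20 and 33.0% for Rpl30, while the assembly factors did not move as a block. Dnajc21, a factor of the last steps of large subunit maturation, rose by 28.4%. The other 7 factors did not pass the test, with fitted changes from -12.8% for Mdn1 to 28.3% for Zfp622. In all, 3 of the 10 genes were called higher and 0 lower at an adjusted p below 0.05 (edgeR quasi-likelihood test, Benjamini-Hochberg over 14550 tested features). By the same test, 5 had an unadjusted p below 0.05 in the higher direction and 0 in the lower. No share over all features was taken at that threshold, so these counts show no excess. At the adjusted p, 7.92% of all tested features were called, 4.25% higher and 3.67% lower. Of 579 tested features on the 3 stretches 13.8% were called, 9.67% higher and 4.15% lower.

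Rps20, a protein of the small subunit, was the most abundant of the 10 and ranked 28th of all tested features by mean level. Its level, as CPM (counts scaled to library size, with TMM factors), was 2983, 3077 and 2925 in wild-type replicates 1 to 3 and 4162, 4437 and 4290 in mutant replicates 1 to 3. Every mutant library lay above every wild-type library, and the gap between the groups was wider than the spread within either. On the log2 scale the change was 0.52 ± 0.07 (SE, edgeR adjusted p = 0.00633). The call held in all 14 alternative fits, with adjusted p up to 0.0489.

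Rpl30, a protein of the large subunit, measured 1157, 1232 and 1167 CPM in the wild-type libraries and 1533, 1582 and 1615 in those of the mutant. Again the groups did not overlap, and the SD between libraries was 40.9 CPM in wild-type libraries and 41.3 in mutant ones. On the log2 scale the change was 0.41 ± 0.07 (SE, edgeR adjusted p = 0.0124). The call was lost without wild-type replicate 2 (adjusted p = 0.0672) and without wild-type replicate 3 (adjusted p = 0.0568), with log2 fold changes of 0.44 and 0.41. Of the annotated exonic bases of Rpl30, 24.8% lie under 2 other annotated features, both at under 1 CPM, and processed pseudogenes of Rpl30 are annotated elsewhere, so its count may miss reads that could not be assigned to 1 place.

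The ratio of the 2 ribosomal proteins to each other is given as a description, with no test. Rps20 stood at 2.50 to 2.58 times the CPM of Rpl30 in the wild-type libraries and at 2.66 to 2.80 times in the mutant libraries, with no overlap. Together they took 0.407%, 0.438% and 0.404% of all counts in wild-type replicates 1 to 3 and 0.554%, 0.629% and 0.584% in mutant replicates 1 to 3. No other cytosolic ribosomal protein gene lies on the stretches, so these 2 cannot be set beside the rest of the ribosome here.

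**Figure D1:**
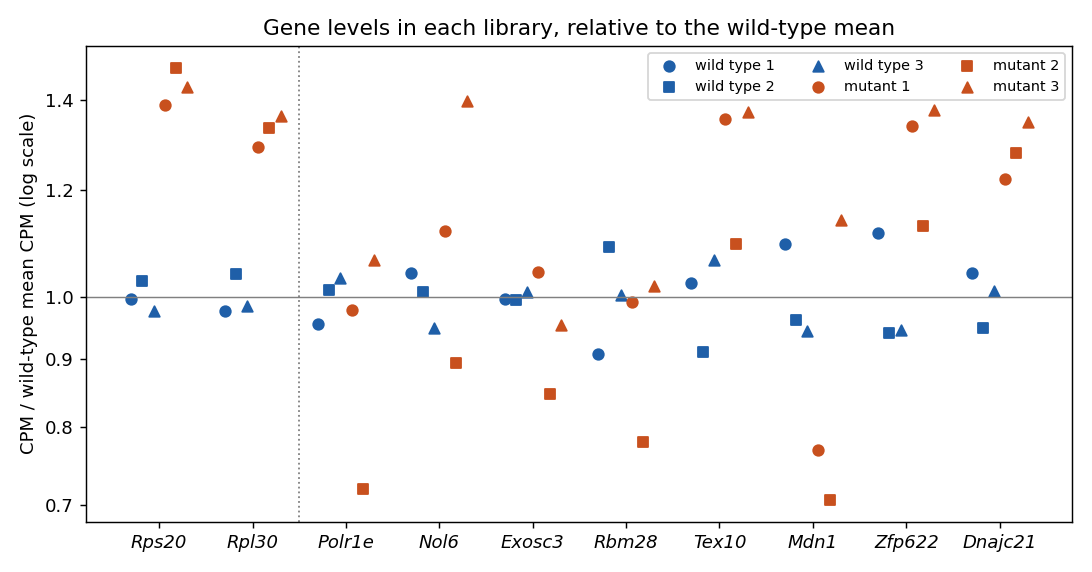
Level of each of the 10 genes in each library, as CPM divided by the mean of the 3 wild-type libraries, on a log scale (blue wild type, orange mutant, symbol shape by replicate number). The mutant points of Rps20 and Rpl30 lie together at 1.29 to 1.48 times the wild-type mean, whereas those of several assembly factors are spread widely, with mutant replicate 2 the lowest in 7 of the 8.

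The first steps of the assembly line did not pass the test. Polr1e, a subunit of RNA polymerase I, measured 145.7, 154.4 and 157.6 CPM in the wild-type libraries and 149.2, 109.8 and 162.6 in those of the mutant (-0.12 ± 0.14 SE in log2, edgeR adjusted p = 0.640). Its groups overlapped, since mutant replicate 2 lay below every wild-type library and mutant replicate 3 above every one. Nol6, a protein of the early small subunit particle, had 453.2, 438.5 and 412.6 CPM without the mutation and 487.1, 388.2 and 608.2 CPM with it (0.19 ± 0.15 SE in log2, edgeR adjusted p = 0.471). Its SD was 20.6 CPM in wild type against 110.2 CPM in the mutant, and its mutant libraries lay on both sides of the wild-type range. The log2 fold change of Nol6 was 0.02 without mutant replicate 3 and 0.34 without mutant replicate 2, and passed in neither. Exosc3, a subunit of the RNA exosome that trims ribosomal RNA precursors, was the steadiest of the 10 in wild type, at 192.3, 192.2 and 194.7 CPM. Its mutant libraries stood at 201.5, 163.6 and 183.9 CPM (-0.08 ± 0.09 SE in log2, edgeR adjusted p = 0.644), again around the wild-type values.

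None of the nuclear factors of the large subunit passed with all libraries, and their fitted changes differed in sign. Rbm28, a nucleolar RNA-binding protein, measured 370.9, 445.5 and 409.9 CPM in the wild-type libraries and 405.3, 318.9 and 416.4 in those of the mutant, overlapping groups (-0.10 ± 0.12 SE in log2, edgeR adjusted p = 0.623). Mdn1, a very large ATPase that strips other factors from the particle, measured 516.6, 453.2 and 445.4 CPM in the wild-type libraries and 363.2, 333.2 and 537.6 in those of the mutant. Mutant replicates 1 and 2 of Mdn1 lay below all wild-type libraries and replicate 3 above them (-0.20 ± 0.17 SE in log2, edgeR adjusted p = 0.511). Its log2 fold change was -0.42 without mutant replicate 3, where it passed (adjusted p = 0.0400 by edgeR), whereas it did not pass at -0.06 without mutant replicate 2, -0.11 without mutant replicate 1 or -0.12 when wild-type replicate 1 was left out. Tex10, a protein of the complex that works with Las1l and Mdn1, measured 297.9, 264.6 and 309.8 CPM in the wild-type libraries and 394.7, 318.2 and 399.0 in those of the mutant. All mutant libraries of Tex10 lay above all wild-type libraries, but the difference did not pass (0.35 ± 0.11 SE in log2, edgeR adjusted p = 0.0861). It passed at 0.46 without mutant replicate 2 (adjusted p = 0.0273 by edgeR) and at 0.37 without the low-count filter (adjusted p = 0.00789 by edgeR). In the other 12 alternative fits Tex10 did not pass.

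The pair of late, cytoplasmic factors of the large subunit, like the nuclear factor Tex10, had higher levels in every mutant library than in any wild-type library. Zfp622 and Dnajc21 are the mouse counterparts of yeast proteins that act together in recycling export factors from the new large subunit. Zfp622 measured 212.2, 178.8 and 179.8 CPM in the wild-type libraries and 255.1, 215.0 and 262.1 in those of the mutant, where mutant replicate 2 only just exceeded wild-type replicate 1. Its log2 fold change of 0.36 ± 0.11 (SE) did not pass in edgeR (adjusted p = 0.0798) and passed in the DESeq2 Wald test (adjusted p = 0.0475), without the low-count filter (adjusted p = 0.0101) and, at 0.45, without mutant replicate 2 (adjusted p = 0.0395 by edgeR). Dnajc21 measured 151.8, 138.1 and 147.0 CPM in the wild-type libraries and 178.2, 186.4 and 196.5 in those of the mutant, with no overlap (0.36 ± 0.08 SE in log2, edgeR adjusted p = 0.0339). Its call was lost without any 1 library other than mutant replicate 2, with adjusted p from 0.0575 without mutant replicate 1 to 0.159 without wild-type replicate 2, and its log2 fold change stayed between 0.32 and 0.40 in these fits.

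**Figure D2:**
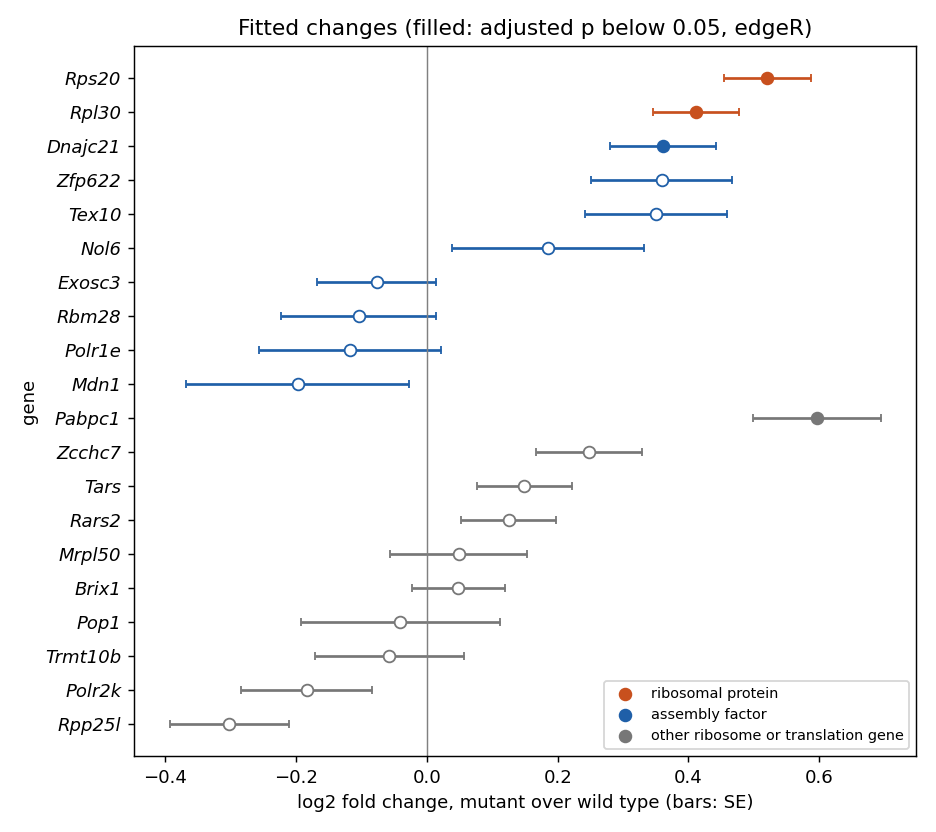
Log2 fold change, mutant over wild type, with its standard error for the 2 ribosomal proteins, the 8 assembly factors and 10 other ribosome and translation genes on the same stretches. Filled points have an adjusted p below 0.05 (edgeR): Rps20, Rpl30, Dnajc21 and Pabpc1, all higher.

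The groups did not overlap for 5 of the 10 genes, each time with the mutant above: Rps20, Rpl30, Tex10, Zfp622 and Dnajc21. Over all tested features the mutant libraries lay above all wild-type libraries for 15.8% and below them for 16.1%, and on the 3 stretches for 24.2% and 13.8%.

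Set side by side, the median log2 fold change was 0.47 over the 2 ribosomal proteins and 0.05 over the 8 assembly factors, a difference of 0.41, beside -0.01 over all tested features and 0.09 over those of the stretches. No test was made of this difference, because the genes were chosen with results known. Summed over the 2 genes, the ribosomal protein level was 4180 ± 114 CPM in wild-type libraries and 5873 ± 164 in mutant ones (SD, n = 3 per group). Summed over the 8 genes, the assembly factor level was 2288 ± 46.4 CPM in wild-type libraries and 2411 ± 367 in mutant ones (SD, n = 3 per group), and mutant libraries lay on both sides of the wild-type range. The ratio of the first sum to the second was 1.77, 1.90 and 1.81 in wild-type replicates 1 to 3 and 2.34, 2.96 and 2.13 in mutant replicates 1 to 3, higher in every mutant library. In bulk tissue a change in the number of cells of a type and a change in the RNA of each cell cannot be told apart.

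The order of the mutant libraries is given as a description, with no test. Mutant replicate 2 was the lowest of the 3 mutant libraries for 7 of the 8 assembly factors, all but Dnajc21, and mutant replicate 3 the highest for 7 of the 8, all but Exosc3. For the 2 ribosomal proteins mutant replicate 1 was the lowest, as it was for Dnajc21, and 2 genes are too few to give a class an order. Over all tested features mutant replicate 2 was the lowest of the 3 for 34.2% and mutant replicate 1 for 30.1%, and mutant replicate 3 was the highest for 33.6%. On the stretches these shares were 28.3%, 28.0% and 26.8%. The factors share libraries, so their common order is not 8 separate observations. Without mutant replicate 2 the median log2 fold change of the 8 factors was 0.19. In that fit 5 of the 10 genes were called higher, Tex10 and Zfp622 beside the other 3. Over the whole table it called 516 features higher, against 618 with all libraries. The difference between the classes was then 0.27. Without mutant replicate 3 the median of the factors was -0.02. The number called higher was 1, Rps20, without wild-type replicate 2 and likewise without wild-type replicate 3. Those 2 fits called 66 and 163 features higher over the whole table.

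**Figure D3:**
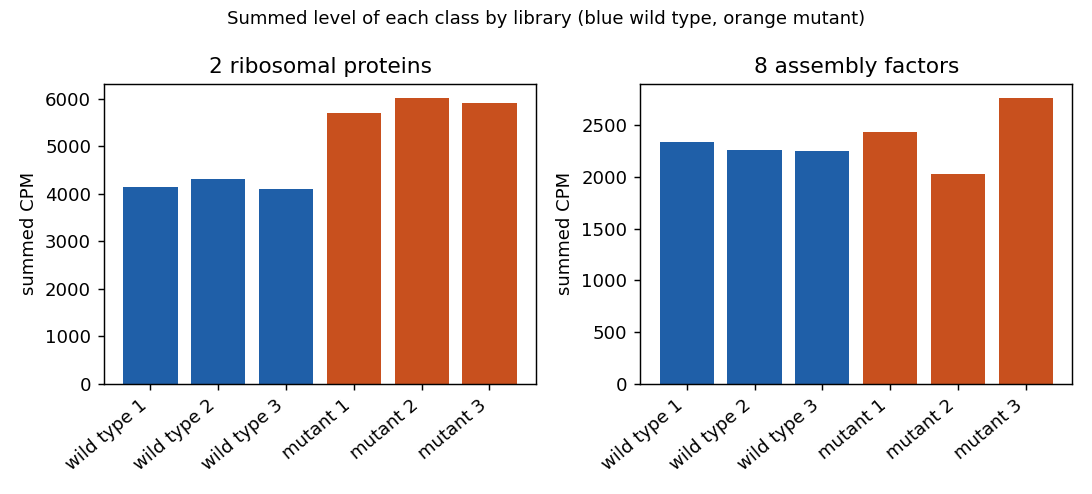
CPM summed over the 2 ribosomal proteins (left) and over the 8 assembly factors (right) in each library (blue wild type, orange mutant; bars start at 0). The ribosomal sum is 5695 to 6019 CPM in the mutant against 4092 to 4309 CPM in wild type, while the factor sum of the mutant runs from 2033 to 2766 CPM around a wild-type range of 2257 to 2341 CPM.

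Per length, the order of levels separated the classes in both genotypes. Divided by the annotated exonic bases of each gene, wild-type levels were 734.1 CPM per kilobase for Rps20, 392.5 for Rpl30, 145.8 for Exosc3, 82.9 for Nol6, 72.2 for Rbm28, 66.4 for Tex10, 39.1 for Polr1e, 30.5 for Dnajc21, 26.7 for Zfp622 and 21.6 for Mdn1. Rbm28 and Tex10, and likewise Dnajc21 and Zfp622, overlapped in their wild-type libraries, and the other neighbours in this order did not. In the mutant, at 1053 CPM per kilobase for Rps20 and 522.1 for Rpl30, the order was the same down to Nol6 and its mutant libraries overlapped those of Tex10, which came next. The order within the classes depended on the length used. The principal coding transcript was also used, a choice made after seeing the data. Where several transcripts ranked equally the longest was taken, so the length may exceed that of the main messenger RNA. Over it, Rpl30 (886 bases) came first at 1338 ± 46.2 CPM per kilobase in wild type (SD, n = 3). Rps20 (3706 bases) came next at 808.2 ± 20.8 (SD, n = 3), and a shorter transcript would give Rps20 a higher level. Dnajc21 and Zfp622 then stood above Polr1e, at 70.7, 67.9 and 51.1 CPM per kilobase, and Nol6, Rbm28 and Tex10 overlapped. Both ribosomal proteins stood above all 8 factors with either length.

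The gene starts that RefSeq gives on GRCm38.p6, an older build than the mm39 that the submitters name, could be read for 7 of the 10 genes. Rps20, Rpl30 and Nol6 were not among them. The windows ran from 250 bases before to 50 after the start. Motifs of 2 kinds known from growth genes were searched. The first was the E-box CACGTG, which MYC and its relatives bind and which reads the same on both strands. It was in 2 of the 7 windows, those of Tex10 and Mdn1, beside 7.15% of all 32851 windows. They are shown because Tex10 and Mdn1 work on the same particle and their fitted changes, neither of which passed, had opposite signs. The E-box is in capitals:
Tex10, chr4:48473449-48473508, minus strand, positions -45 to 15: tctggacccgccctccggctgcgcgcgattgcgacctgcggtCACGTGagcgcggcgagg
Mdn1, chr4:32657139-32657168, plus strand, positions 21 to 50: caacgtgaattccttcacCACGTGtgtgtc

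In Tex10 the motif straddled the annotated start, from position -3 to 3, and in Mdn1 it lay after the start, from position 39 to 44. The starts of the 2 late factors of the large subunit held no E-box, like those of Polr1e, Exosc3 and Rbm28, whose fitted changes were negative. Tex10, with an E-box, was higher in every mutant library, as the late factors were. A link between the motif and the changes was not tested. The 2 late factors are shown with the first transcribed base in capitals:
Zfp622, chr15:25984321-25984380, plus strand, positions -45 to 15: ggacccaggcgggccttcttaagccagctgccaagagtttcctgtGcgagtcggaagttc
Dnajc21, chr15:10470502-10470561, minus strand, positions -45 to 15: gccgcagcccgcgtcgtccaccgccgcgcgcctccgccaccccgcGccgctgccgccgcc

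The second was a pyrimidine start, a C followed by at least 4 further C or T bases within 5 bases of the start on the transcribed strand, as ribosomal protein messenger RNAs are known to have. It was found in Rbm28 only, of the 7, beside 18.4% of all windows. The Dnajc21 window was rich in G and C, at 78.7%, a share that 1.60% of all windows reach, whereas that of Zfp622 held 58.7%, near the median of 52.7% for all windows. A match or its absence describes these letters and says nothing of binding.

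Other genes of the pathway on the stretches were taken from 9 lists of ribosome and translation genes. Of 11 others, 10 were tested and Rmrp, the RNA of RNase MRP, was listed at 0 counts. Of the 10 tested, 1 was called higher and 0 lower, near the 9.67% and 4.15% of all tested features on the stretches. An unadjusted p below 0.05 (edgeR) was reached by 2 in the higher direction and 1 in the lower, with no share over all features taken. The median log2 fold change of the 10 was 0.05. Pabpc1, the cytoplasmic poly(A)-binding protein that supports translation, was the only translation factor and rose from 6799 ± 108 to 10280 ± 1334 CPM (SD, n = 3 each), or 0.60 ± 0.10 in log2 (SE, edgeR adjusted p = 0.0134). Its messenger RNA is known to begin, like those of ribosomal proteins, with a pyrimidine tract. The call of Pabpc1 was lost without wild-type replicate 2 (adjusted p = 0.0746) and without wild-type replicate 3 (adjusted p = 0.0548). Of transfer RNA charging and maturation, Tars, Rars2 and Trmt10b did not pass.

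None of the remaining assembly genes passed either. Brix1, a large subunit assembly factor, stood at 339.8 ± 5.0 and 351.4 ± 17.5 CPM in wild type and mutant (SD, n = 3 per group). The groups did not overlap for Rpp25l, at 128.1 ± 8.9 and 103.9 ± 6.5 CPM, with every mutant library below (edgeR adjusted p = 0.0813). Zcchc7, a cofactor of the nuclear exosome, measured 112.9 ± 4.4 and 134.0 ± 5.8 CPM (edgeR adjusted p = 0.0979), with every mutant library above every wild-type library. Pop1, a subunit of RNase MRP, had 97.8 ± 2.0 and 95.0 ± 20.6 CPM. Polr2k, a subunit common to the RNA polymerases, stood at 20.8 ± 0.6 and 18.3 ± 0.9 CPM, with every mutant library below (edgeR adjusted p = 0.294). In all, of the 10 tested genes outside the main set, mutant libraries lay wholly above wild type for 4 and wholly below for 2. The 1 mitochondrial ribosomal protein gene, Mrpl50, measured 261.2 ± 28.6 and 270.2 ± 24.6 CPM (edgeR adjusted p = 0.810). No gene of the list of snoRNA machinery lay on the stretches.

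The tested protein-coding genes of the stretches whose profile over the 6 libraries was most like the mean of Rps20 and Rpl30 were Tmem209, Ripk2 and Phf14. Likeness was the root mean square difference of centred log2 CPM, which was 0.07, 0.07 and 0.08 for these, against a median of 0.33 over 396 genes. Tmem209 stood at 187.6 ± 7.3 CPM in wild-type libraries and 264.4 ± 16.2 in mutant ones (SD, n = 3 per group). Those most like the mean of the 8 factors were Otulin, Ncbp1 and Nipsnap3b, with differences of 0.05, 0.06 and 0.07 against a median of 0.30. Ncbp1 measured 657.0, 622.9 and 631.0 CPM in the wild-type libraries and 757.1, 576.9 and 732.4 in those of the mutant, the same dip in mutant replicate 2.

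**Figure D4:**
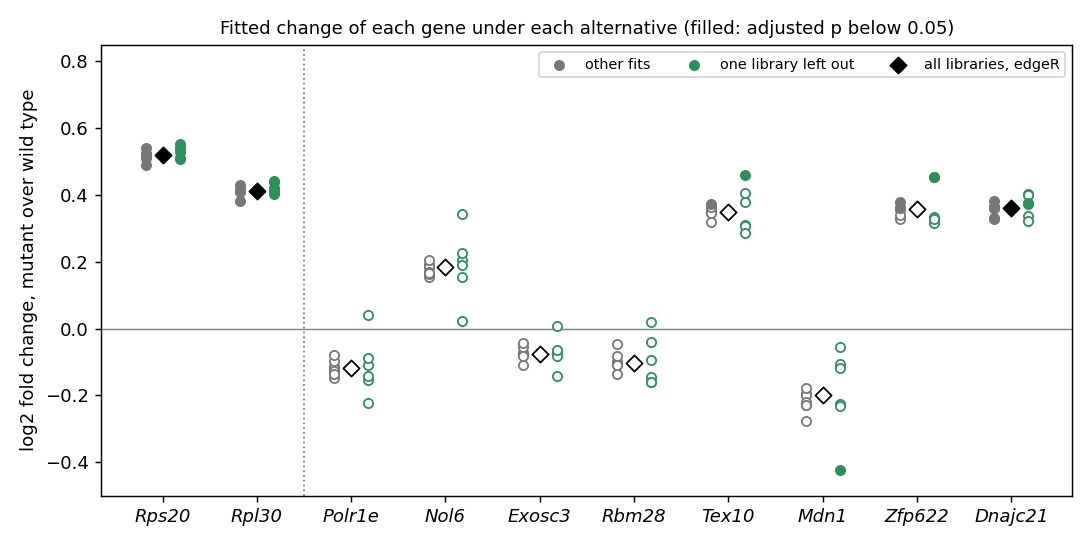
Log2 fold change of each of the 10 genes with all libraries in edgeR (diamond), in 8 other fits (grey) and with each library left out in turn (green), filled where the adjusted p was below 0.05. Rps20 is filled throughout, and the fits of Polr1e, Exosc3 and Rbm28 lie on both sides of 0.

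The authors' deposited table gives the same directions for all 10 genes, from the same libraries. There Rps20 has a log2 fold change of 0.53 with an adjusted p of 9.31e-07, and Rpl30 has 0.42 with 0.000277. In the authors' deposited table Dnajc21 has 0.37 with 0.00840, Zfp622 has 0.37 with 0.0462 and Tex10 has 0.36 with 0.0575, while the other 5 have adjusted p of 0.523 or more.

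Names could be read only where neighbouring genes stood at ordinary levels. The stretches were chosen as runs of ubiquitously expressed genes that reached a mean of 10 CPM, so by construction nearly all such genes on them do, 40 of 42 beside these 10, and this is no independent support for the names. Elsewhere 30.1% of 1355 did. That list held only some of the 10 genes, among them Rps20 and Dnajc21. With those left out of it, 8 of the 10 genes lay on the stretches, with Rps20 and Dnajc21 just past the ends. With a detection minimum of 20 CPM the chromosome 15 stretch dropped out, and with it Rpl30, Zfp622 and Dnajc21, so those names are less sure. Beyond Dnajc21 the next ubiquitous genes are Nup155, which reached the minimum, and Rpl37, at 0.332 CPM. The receptor gene Fgfr1 and the markers of tailbud, somitic and intermediate mesoderm lay outside, so neither the genotype nor the labelled cell types could be checked by name. Total counts ran from 16984568 in mutant replicate 2 to 27316475.

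Other features of the libraries moved with the genotype. Mitochondrially encoded messenger RNAs took 10.8% to 13.9% of counts in wild type and 5.30% to 6.23% in the mutant. With library sizes computed without them the log2 fold changes of Rps20 and Rpl30 were 0.52 and 0.41. That fit checks scaling only, which the TMM factors of the main fit already adjust, and a link to the mitochondrial share was not tested. Of 3 primitive erythroid markers on the stretches, Hemgn and Tspan33 fell and Tmod1 did not pass, and their summed level was 127.2 to 199.9 CPM in wild-type libraries and 41.4 to 56.3 in mutant ones, with no marker at 0. The neural marker Pou3f2 stood at 4.23 to 11.7 CPM and 20.8 to 305.6 CPM, and the endothelial marker Cav1 at 7.97 to 14.1 CPM and 19.8 to 185.2 CPM, both highest in mutant replicate 2. Esrp1, a marker of surface ectoderm and gut, stood at 136.0 to 174.0 and 71.5 to 125.7 CPM, and Wnt2, of the allantois, at 0.428 to 7.79 and 22.5 to 37.5 CPM, both without a call. The part of these cell types in the levels of the ribosomal genes was not tested. Rows named for Y-linked genes stood at 584 CPM in wild-type replicate 1 and at 942 and 656 CPM in mutant replicates 2 and 3. In the other libraries they reached at most 0.598 CPM. These rows lie outside the stretches, and a marked library may pool embryos of both sexes. With a term for embryo sex set from them, Rps20 and Rpl30 kept their calls (adjusted p = 0.0262 and 0.0422 by edgeR) and Dnajc21 did not (adjusted p = 0.0744).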

How the data were processed

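The labels' protocols describe 6 stranded mRNA libraries of tailbud RNA. Tools listed in the submitters' processing notes are featureCounts, Bowtie, DESeq and DESeq2, with mm39 as build; versions, annotation and strand setting are not given in the sources used here. Raw counts were deposited by the authors for 56953 Ensembl gene IDs, the input of every test. Their deposited DESeq2 table holds, per the file headers, a mean normalized signal, log2 fold changes, a Wald score and p-values, and was used only beside the calls. The count columns carry 10-5 in their names, unexplained, and the labels' day 9.5 is used. IDs were reduced to their first 18 characters, and 52029 matched a symbol.

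Gene order and exonic lengths came from GENCODE M21, an older build. Stretches where names fit the reads were runs of at least 6 ubiquitously expressed genes found by a hidden Markov model with 2 states (detection at 10 CPM with a chance of 0.95 inside and 0.25 outside, a switch chance of 0.03 and a posterior above 0.95).

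The test was edgeR 4.0.16 in R 4.3.3 (quasi-likelihood F test, filterByExpr by group, TMM, all 6 libraries, no covariate, Benjamini-Hochberg over 14550 features), checked on simulated counts. Fold changes are mutant over wild type. Alternatives were DESeq2 1.42.0 (Wald test, size factors), limma-voom (limma 3.58.1), each library left out, embryo sex as a term, replicate number as a block, a low-count filter at 5 CPM in 3 libraries or none, library sizes that omit mitochondrially encoded features, a detection minimum of 20 CPM and, added after seeing the data, the principal transcript as gene length. The genes and lists were chosen with earlier results of these data known. All 10 genes are named; of each list, called genes (at most 6 by adjusted p) or, where none was called, the 2 with the highest level, with the remaining tested genes given for completeness; and the 3 genes most like each class in profile (log2 CPM, prior count 2), leaving out predicted genes, an exception added later. A further gene of the lists is not reported here. Errors cover the spread between libraries.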

Additional observations from a re-analysis of the deposited data

How the results depend on the processing

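Rps20 kept its call in all 14 alternative fits, with log2 fold changes from 0.49 to 0.55. Rpl30 lost it in 2 and Dnajc21 in 7, and both kept their direction. The medians of the classes and their difference moved by less than the pooled SD between libraries in every alternative. That SD was wide, 0.185 for the factors and 0.199 for the difference, beside a factor median of 0.05. A factor median of 0.19 or a difference of 0.27, both without mutant replicate 2, therefore counted as unmoved. With single libraries left out, log2 fold changes of genes not called with all libraries ran from -0.22 to 0.0422 for Polr1e, -0.14 to 0.0081 for Exosc3, -0.16 to 0.0184 for Rbm28, -0.15 to 0.14 for Pop1, -0.14 to 0.0318 for Trmt10b, -0.0155 to 0.15 for Mrpl50, 0.02 to 0.34 for Nol6 and -0.42 to -0.06 for Mdn1, the last called at -0.42. Those of Polr1e, Exosc3, Rbm28 and Pop1 changed sign without mutant replicate 2, that of Trmt10b without mutant replicate 3 or wild-type replicate 3, and that of Mrpl50 without replicate 1 of either group.

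Of the 10 genes, 5 were called higher without the low-count filter, and leaving out single libraries gave 1 to 5 higher and 0 to 1 lower, the 1 being Mdn1. Over the whole table, leaving out single libraries gave 66 to 783 features higher and 63 to 565 lower. By the Wald test of DESeq2 there were 967 higher and 796 lower, without a low-count filter 1352 and 1145, and with the term for embryo sex 273 and 264. Of the other ribosome and translation genes, where 1 was higher, 0 to 1 were higher with a library left out, and 0 with a detection minimum of 20 CPM, which drops the stretch that holds Pabpc1. The filter of 5 CPM in 3 libraries called 1 lower, Rpp25l (adjusted p = 0.0410 by edgeR). The causes were not tested, apart from fewer libraries or genes.

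Deviations of libraries that share a replicate number correlated at -0.23, -0.01 and -0.01, so the numbers were not taken to pair them. The replicate block gave 433 features higher and 411 lower, 2 of the 10 genes were called higher, with Dnajc21 at an adjusted p of 0.0760 by edgeR, and 1 other ribosome or translation gene was, Pabpc1. The smallest raw count of any of the 10 genes was 1950, so counting depth was not limiting for them.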
